A study of Mus musculus with 100 samples.

Results

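The 7 genes described here carry the breakdown of stored fat in adipocytes: the lipases Pnpla2, Lipe and Mgll, the lipase coactivator Abhd5, the lipase inhibitor G0s2, the carboxylesterase Ces1d and the patatin-like protein Pnpla3. They were chosen by name, and their Ensembl transcripts were mapped to gene symbols; all 7 were found among the 32153 genes measured. The study compared mouse fat with and without GPS2 in adipocytes; GPS2 belongs to the NCoR/SMRT corepressor, which silences gene promoters. Messenger RNA was sequenced in 5 sets of samples that were normalised separately, and each set is called a table. CD is intra-abdominal fat from chow-fed mice of 19 weeks (3 wild type and 3 knockout). HFD is the same depot from mice of 11 weeks on high fat diet, with 4 weeks of diet in its name (4 and 4). Epi (3 and 3) is that depot again and Adipo (3 and 2) its isolated adipocytes, both from mice of 19 weeks and with 12 weeks of high fat diet in the table names. BA is inguinal fat from the beta-adrenergic arm, at 8 weeks (4 and 4); no table of unstimulated inguinal fat was analysed here, so the stimulus itself was not compared. The strain label, a floxed Gps2 with Cre driven by Adipoq, a gene of mature adipocytes, is identical for wild type and knockout samples, and the genotype stands only in the sample titles.

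Adipocytes store fatty acids as triglyceride in a lipid droplet. On demand, PNPLA2 (adipose triglyceride lipase) removes the first fatty acid, LIPE (hormone-sensitive lipase) acts mainly on the resulting diglyceride, and MGLL (monoglyceride lipase) releases the last fatty acid and glycerol. Beta-adrenergic signals raise cAMP and activate protein kinase A, which phosphorylates LIPE and the droplet protein PLIN1; PLIN1 then releases ABHD5, which activates PNPLA2, whereas G0S2 binds and inhibits PNPLA2. Much of this control acts on the proteins, which RNA levels do not show.

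The genotype label was first checked against Gps2, whose full-length transcript gives no separation. It lay at 468 to 701 normalised reads in wild type and 553 to 663 in the libraries labelled knockout in CD, at 355 to 421 and 330.5 to 424 in HFD, and at 1061 to 1494 and 1198 to 1387 in Epi. In Adipo it lay at 755 to 851 and 811 to 839, and in BA at 221 to 363 and 272 to 381. No source used here names the deleted exons, so this transcript checks nothing, and "knockout" below is the label. Reads per replicate ranged from 29342792 (in Epi) to 63232066 (in HFD), so counting error is small for genes as abundant as these. The adipocyte marker list (Adipoq, Plin1, Lpl and others) had 10 of 10 genes at 50 normalised reads or more in every library. Some libraries stood apart. B cell markers reached 50 in up to 8 of 8 genes in CD wild type and in up to 2 in CD knockout. Skeletal muscle markers reached 50 in 0 to 6 of 8 genes in BA, in wild type and in knockout alike. The part of these 2 lists in the values below was not tested. The CD library wild type 2 had the lowest mean log2 adipocyte marker level, 13.05 against 14.25 to 14.84 in the other 5 CD libraries. Epididymis and testis markers reached 50 in 8 of 14 genes in CD knockout 1 and 2, in 12 and 10 of 14 in Epi knockout 2 and 3, in 3 of 14 in Epi wild type 1 and in 1 of 14 (Crisp1, at 43705) in CD wild type 2. CD knockout 1 and 2 were also closer to each other than any other pair of replicates in the study (chi-square per degree of freedom 2.42, against at most 1.16 between libraries of 1 replicate).

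The promoters of 4 genes are shown, chosen after the values below were seen. Abhd5 and Lipe are the 2 genes whose wild-type and knockout values did not overlap in HFD. Pnpla3 and Mgll varied in opposite directions in BA. No link between these sequences and the values was tested. Each window runs from 250 bases before to 50 after the annotated start of transcription and is written 5′ to 3′ on the strand of the gene (RefSeq, GRCm38.p6). Capitals mark matches on either strand to 4 motifs: CACGTG (E-box), GTAAACA (forkhead), TGACG (core of the cAMP response element) and AGGTCA (nuclear receptor half-site).
Abhd5, chr9:122351366-122351665, plus strand: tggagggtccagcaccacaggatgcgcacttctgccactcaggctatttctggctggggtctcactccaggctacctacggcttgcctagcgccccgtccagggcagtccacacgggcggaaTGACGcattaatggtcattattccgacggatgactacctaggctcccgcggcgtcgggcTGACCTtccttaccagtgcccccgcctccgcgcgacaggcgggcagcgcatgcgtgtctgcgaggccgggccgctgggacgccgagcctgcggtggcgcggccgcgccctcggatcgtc
Lipe, chr7:25390063-25390362, minus strand: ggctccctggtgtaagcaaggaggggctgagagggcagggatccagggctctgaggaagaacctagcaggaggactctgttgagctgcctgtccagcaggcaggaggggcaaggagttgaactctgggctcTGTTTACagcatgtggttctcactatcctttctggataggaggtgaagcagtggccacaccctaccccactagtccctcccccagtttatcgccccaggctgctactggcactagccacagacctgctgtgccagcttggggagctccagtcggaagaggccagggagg
Pnpla3, chr15:84167566-84167865, plus strand: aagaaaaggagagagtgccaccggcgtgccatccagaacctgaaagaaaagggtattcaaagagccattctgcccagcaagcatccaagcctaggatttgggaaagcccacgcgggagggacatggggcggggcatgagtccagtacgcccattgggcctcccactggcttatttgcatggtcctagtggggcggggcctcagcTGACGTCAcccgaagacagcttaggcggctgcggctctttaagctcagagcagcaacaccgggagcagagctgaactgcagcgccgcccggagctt
Mgll, chr6:88724162-88724461, plus strand: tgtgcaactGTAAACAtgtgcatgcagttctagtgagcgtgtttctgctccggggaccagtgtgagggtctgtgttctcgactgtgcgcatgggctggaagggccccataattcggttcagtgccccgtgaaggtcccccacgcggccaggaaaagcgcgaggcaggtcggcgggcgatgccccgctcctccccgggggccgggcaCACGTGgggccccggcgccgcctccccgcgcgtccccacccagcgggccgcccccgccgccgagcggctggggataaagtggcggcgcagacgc
The Pnpla3 window held 2 overlapping TGACG matches on opposite strands, starting 46 and 43 bases before the start, which together form 1 palindrome. The Abhd5 window held TGACG 128 bases and AGGTCA 69 bases before the start. The Lipe window held GTAAACA 119 bases before the start, and a second Lipe window, chr7:25395938-25396237, held CACGTG 155 bases before its own. The Mgll window held GTAAACA 241 and CACGTG 44 bases before the start, and a second Mgll window, chr6:88724454-88724753, held TGACG 19 bases after its own. Of 32851 mouse promoters of the same length, 20.8% held TGACG, 16.3% AGGTCA, 7.15% CACGTG and 3.65% GTAAACA. A match describes the letters in the window and shows no binding. RefSeq windows were matched for 6 of the 7 genes; among the others, G0s2 held TGACG 246 bases before its start, and Pnpla2 held none of the 4 motifs.

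The 7 genes lie on 6 chromosomes (GRCm38 annotation). Pnpla2 lies at chr7:141455198-141460743, Lipe at chr7:25379527-25398710, Mgll at chr6:88724412-88828360, Abhd5 at chr9:122351608-122381524, G0s2 at chr1:193272161-193273217, Ces1d at chr8:93166068-93197838 and Pnpla3 at chr15:84167837-84187236. The values are normalised reads over the exons of 1 transcript per gene, with 9 exons for Pnpla2 and Lipe, 8 for Mgll and Pnpla3, 7 for Abhd5, 2 for G0s2 and 14 for Ces1d. Exons of another gene, A730085K08Rik, overlap 30.1% of the Abhd5 transcript, and reads of both cannot be told apart there.

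In wild-type fat all 7 were abundant. Per transcript length, Pnpla2 had the highest mean level of the 7 in each of the 5 tables, from 805 ± 313 reads per kilobase of transcript, scaled to the library total (RPKM) in CD to 1418 ± 102 in BA (SD, n = 3 and 4). In CD the ranges of Pnpla2, Ces1d, Lipe, Mgll, Pnpla3 and G0s2 overlapped from each gene to the next, so their order there is not resolved; in HFD Pnpla2 (1099.8 to 1448) stood clear of Lipe (953 to 1071). Abhd5 was the lowest of the 7 in every table, with wild-type means of 47.4 ± 8.09 in CD to 78.5 ± 16.7 in Adipo (SD, n = 3 and 3), below every replicate of the other 6 genes. Ranked among all 32153 genes, Abhd5 stood between 787 and 1422, and the other 6 between 36 and 287.

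Levels between tables are shares of each library and were not tested. Pnpla3 stood at 1249.8 ± 646 RPKM in inguinal fat of BA (SD, n = 4), next to Pnpla2, and at 387 to 459 in the other 4 tables. G0s2 stood at 208 ± 23.1 in Epi and 196 ± 23.2 in Adipo (SD, n = 3 each), against 375 ± 275 in CD (n = 3), 410.2 ± 178 in BA and 545 ± 122 in HFD (n = 4 each). Isolated adipocytes were set beside whole fat of the same replicate number. The Adipo to Epi ratio in wild type was 1.31 to 1.52 for Pnpla2, 1.07 to 1.29 for Lipe, 0.984 to 1.13 for Mgll, 1.03 to 1.26 for Abhd5, 1.06 to 1.24 for Pnpla3, 0.811 to 1.04 for G0s2 and 0.984 to 1.53 for Ces1d (3 pairs). Pnpla2, Lipe, Abhd5 and Pnpla3 were thus higher in the isolated cells in each wild-type pair, Abhd5 by as little as 1.03. In the 2 knockout pairs, matched by number alone, the ratio was 1.07 and 1.57 for Pnpla2 and 1.13 and 1.57 for Lipe. It was 0.901 and 1.11 for Abhd5, 0.878 and 1.26 for Pnpla3, and 0.568 and 0.904 for G0s2.

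**Figure D1:**
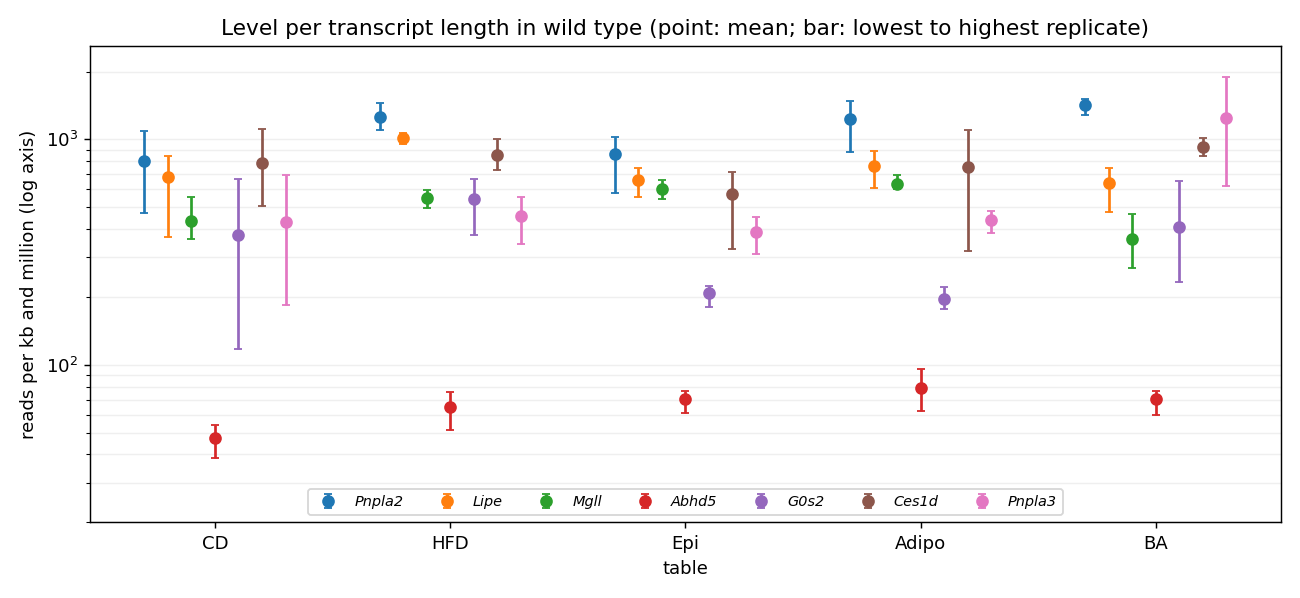
Levels of the 7 genes in wild type, in RPKM (log axis), by table; points are means and bars run from the lowest to the highest of 3 or 4 replicates. Abhd5 lies below the other genes in each table, and Pnpla3 has a mean of 1249.8 in BA against 387 to 459 elsewhere.

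Across the 5 tables, none of the 7 genes passed the test between knockout and wild type. Of 35 values, 0 had an adjusted p under 0.05 by limma on log2(value + 1) with Benjamini-Hochberg adjustment over all genes tested. The lowest adjusted p was 0.105 (Abhd5 in HFD). Of the 35, 2 had an unadjusted p under 0.05, both in HFD, where 20.8% of all genes did (2899 of 13946). The background differed by table: over all genes, 3.47% passed in HFD (484 of 13946), 0.638% in Adipo, 0.0323% in BA, and 0% in CD and Epi, where 1487 and 1613 genes had an unadjusted p under 0.05, DESeq2 called 922 and 530 genes, and edgeR called 0. Values of wild type and knockout did not overlap for 3 of the 7 genes in Adipo (48.0% of all genes), 2 in HFD (14.0%), 1 in Epi (16.5%), 1 in BA (5.49%) and 0 in CD (16.9%). The median log2 fold change of the 7 (knockout minus wild type) was -0.14 in HFD, 0.17 in BA, 0.10 in Adipo and 0.20 in both CD and Epi; over all genes it was -0.09 in HFD, 0.01 in BA, -0.04 in Adipo, 0.11 in CD and -0.03 in Epi. In CD, TMM scaling moved the median of all genes from 0.11 to 0.01. The half-width of the 95% interval of a log2 fold change ran from 0.27 to 1.85. These intervals are not adjusted over all genes. A change larger than its half-width could therefore still fail to pass, as for Abhd5 and Lipe in HFD. In bulk samples, fewer adipocytes and less RNA per adipocyte cannot be told apart.

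**Figure D2:**
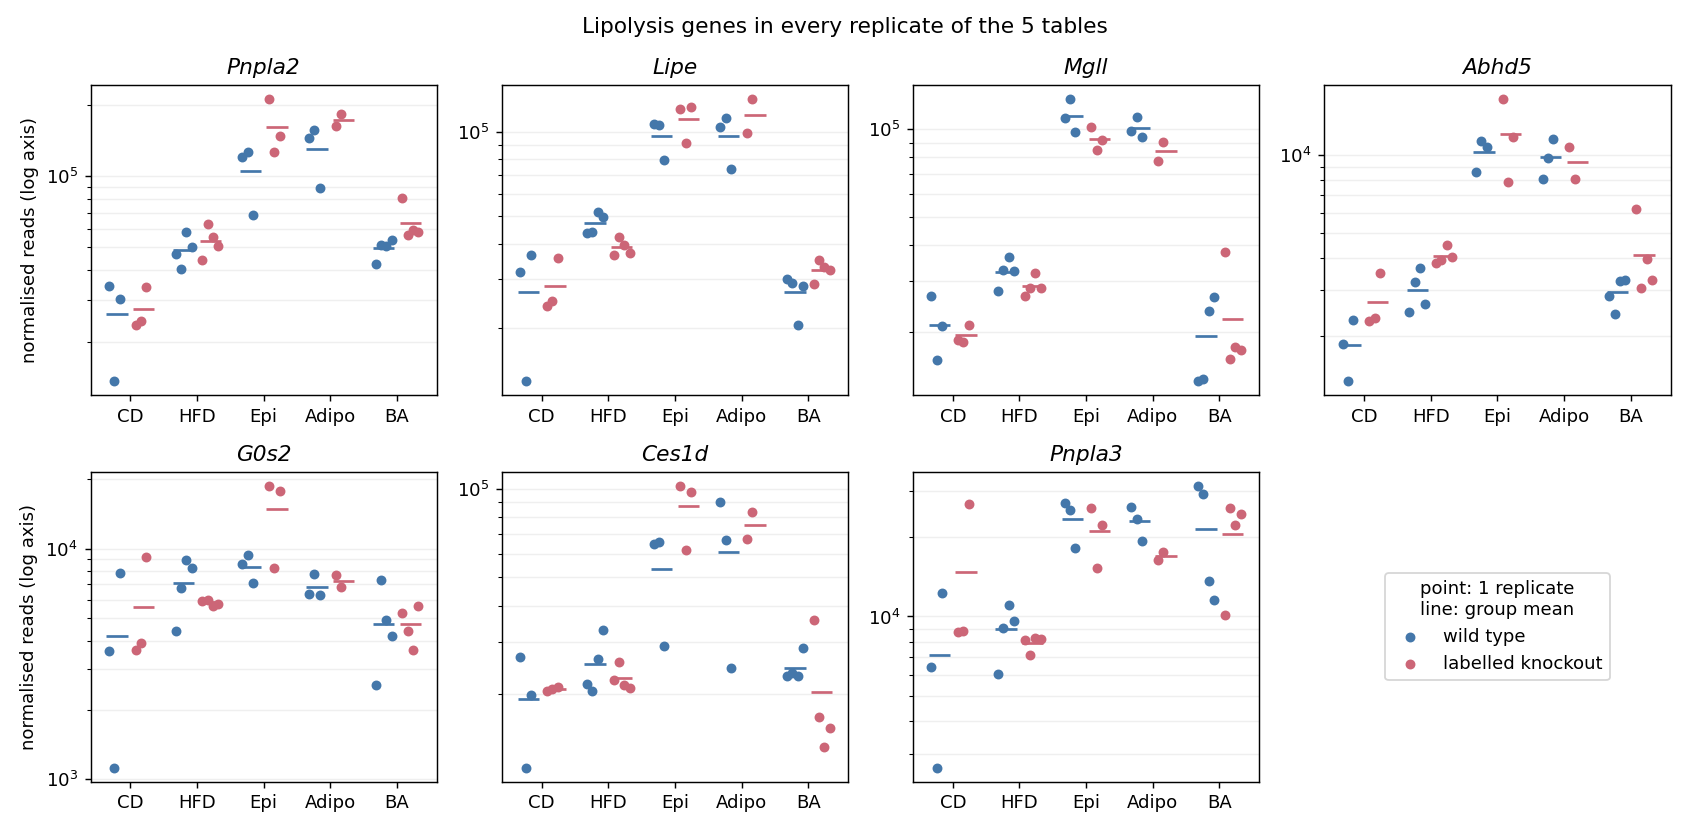
Normalised reads (log axis) of the 7 genes in every replicate of the 5 tables; points are replicates, lines group means, blue wild type and red libraries labelled knockout. In CD wild type 2 is lowest for each gene; in HFD the Abhd5 groups (2482 to 3657 and 3845 to 4502) and the Lipe groups (43529 to 51834 and 36485 to 42206) do not overlap.

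Pnpla2, the first lipase of the pathway, had the higher mean in the knockout in all 5 tables by normalised reads, without passing in any. In CD the direction depended on the scale: in RPKM, wild type stood at 805 ± 313 and the knockout at 712 ± 105 (SD, n = 3 each). In Epi the wild-type libraries stood at 120812, 125982 and 68337 normalised reads and the libraries labelled knockout at 211536, 126488 and 147070.1. Every knockout value lay above every wild-type value, by a margin of 126488 against 125982, and wild type 3 was the lowest library. The log2 fold change was 0.64 ± 0.32 (SE; 95% interval -0.11 to 1.39; adjusted p = 0.584). In Adipo the wild-type values were 144366, 156132 and 88753 and the knockout values 163277 and 182125, again without overlap and with wild type 3 lowest (0.45 ± 0.29, adjusted p = 0.378). In BA the wild-type libraries gave 42371, 51331, 50683 and 53701 and those labelled knockout 81172, 56603, 59040.0 and 57813, a difference of 0.35 ± 0.19 (adjusted p = 0.64). The groups did not overlap in BA, and knockout 1 stood far above the other 3; without it the difference was 0.23. The adipocyte marker list did not overlap in BA either, with 10 of 10 genes at 50 or more in every library. Its sum was 228529 to 328876 normalised reads in wild type and 347520 to 486887 in the knockout. Its mean log2 level was 13.62 to 14.13 and 14.15 to 14.60. Single members could overlap: Adipoq stood at 20024 to 36054 and 30979 to 41784, and Plin1 and Lep overlapped too. The part of these markers in the BA differences was not tested. In HFD and CD the groups overlapped, with differences of 0.12 ± 0.16 and 0.16 ± 0.41.

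Libraries with the number 3 held the lowest wild-type Pnpla2 and Ces1d in both Epi and Adipo. The macrophage marker list was highest in the same 2 libraries, with a mean log2 level of 12.54 in Epi wild type 3 (11.20 to 11.92 in the other 5 Epi libraries) and 10.33 in Adipo wild type 3 (7.05 to 9.58 in the other 4). Without wild type 3 the Pnpla2 difference was 0.36 in Epi and 0.20 in Adipo, and that of Ces1d 0.38 and -0.06. Other lists did not overlap between the groups. In Epi, T cell markers had a mean log2 level of 5.13 to 5.69 in wild type against 3.93 to 5.11 in the knockout, and neutrophil markers 4.37 to 4.97 against 3.17 to 3.69. In Adipo, endothelial markers had 7.60 to 8.45 in wild type against 10.38 and 11.52, and mesothelial markers 3.47 to 5.71 against 6.39 and 7.19. Skeletal muscle markers had 2.15 to 2.43 against 2.90 and 3.10, but only 1 of 8 reached 50 in each library. Their sum leaned the other way, with overlap, at 2242 to 5470 normalised reads in wild type against 921 and 2491. The part of these lists in the differences of the 7 genes was not tested.

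Lipe, the hormone-sensitive lipase, was lower in the HFD knockout without passing. Wild type stood at 43529, 44087, 51834 and 49556 normalised reads and the knockout at 36485, 42206, 39509 and 37052. Each knockout library lay below each wild-type library. The means were 47252 ± 4089.9 and 38813 ± 2615 (SD, n = 4 each), a log2 fold change of -0.28 ± 0.12 (95% interval -0.55 to -0.02, adjusted p = 0.216). In the other 4 tables the Lipe groups overlapped and the knockout mean of normalised reads was the higher one, except that in RPKM the CD means were 684 in wild type and 605 in the knockout, with log2 differences of 0.27 ± 0.18 in BA, 0.26 ± 0.26 in Adipo, 0.20 ± 0.22 in Epi and 0.17 ± 0.45 in CD. The difference between the BA and HFD effects, 0.56 ± 0.20, did not pass either (adjusted p = 0.246).

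A single-exon Lipe transcript at the far 5′ end of the gene (chr7:25397459-25398709), outside the transcript used above, was read mainly in 1 library. LIPE is also made in the testis, from an upstream exon. This transcript stood at 539 normalised reads in Epi wild type 1, at 33.7 in Epi knockout 2, at 9.30 and 9.83 in CD knockout 1 and 2, at 1.72 in Epi knockout 3 and at 0 in the other 3 Epi libraries. Epi wild type 1 also held the sperm protamine Prm1 at 10481 and Prm2 at 19223, and the transition protein Tnp1 at 8309.8; Prm1 stood at 249 in Epi knockout 2, 254 in CD knockout 1 and 267 in CD knockout 2. In the same library the single-exon transcript amounted to 0.507% of the main Lipe transcript.

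Mgll, the monoglyceride lipase, was lower on average in the knockout of CD, HFD, Epi and Adipo, and no difference passed. In Adipo wild type stood at 98812, 110655 and 94013 normalised reads and the knockout at 77887 and 90338. Both knockout values lay below all 3 wild-type values (-0.27 ± 0.19, adjusted p = 0.421). In Epi wild type stood at 109758, 127304 and 97569 and the knockout at 101709, 85093 and 91591, with overlap (-0.26 ± 0.19, adjusted p = 0.693). Set against Lipe within each library, per transcript length, Mgll stood at 0.821 to 0.978 of Lipe in Epi wild type and 0.593 to 0.742 in the knockout, and at 0.755 to 1.01 and 0.548 to 0.625 in Adipo. These ratios did not overlap in either table. They were formed after the values had been seen and carry no test, and the share of other gene pairs without overlap was not computed. Of single genes, 16.5% in Epi and 48.0% in Adipo did not overlap. In HFD the same ratio overlapped, at 0.507 to 0.59 in wild type and 0.536 to 0.641 in the knockout.

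Abhd5, the coactivator of PNPLA2, gave the lowest p of the 7 genes. In HFD wild type stood at 2482, 3248, 3657 and 2654 normalised reads and the knockout at 3845, 3924, 4502 and 4053. All 4 knockout libraries lay above all 4 wild-type libraries, and the lowest wild-type values were those of wild type 1 and 4. The means were 3010.1 ± 542 and 4081 ± 293 (SD, n = 4 each), a 1.37-fold difference (95% interval 1.11 to 1.69) and a log2 fold change of 0.45 ± 0.14 (adjusted p = 0.105). DESeq2 on the recovered reads gave 0.52 with an adjusted p of 0.0065, while edgeR gave an adjusted p of 0.078; without each HFD replicate in turn the limma adjusted p lay between 0.0661 and 0.259. The 5 Abhd5 transcripts with a wild-type mean of 100 or more gave log2 fold changes of 0.40 to 0.73 in HFD; they share exons and are not independent. Cell type markers also moved in HFD. The summed adipocyte markers did not overlap between the groups (540448 to 649121 normalised reads in wild type, 672141 to 776003 in the knockout), while their mean log2 level did (14.65 to 14.98 and 14.82 to 15.09). T cell markers, of low abundance, did not overlap (mean log2 2.56 to 3.37 and 3.72 to 4.36), with 0 of 8 at 50 or more in wild type and at most 1 in the knockout. Macrophage markers overlapped (8.67 to 9.84 and 9.41 to 9.49). The part of these lists in the HFD differences, Lipe and the pathway lists included, was not tested.

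In CD, Abhd5 stood at 1869, 1341 and 2309 in wild type, whereas the knockout gave 2278, 2355 and 3498, with knockout 1 below wild type 3 (0.57 ± 0.27, adjusted p = 0.538; 0.36 without wild type 2 and 0.37 without knockout 3). In BA wild type gave 2857, 2439.6, 3269 and 3306 and the knockout 6207, 3059.6, 3961 and 3298, with knockout 1 far above the rest (0.43 ± 0.22, adjusted p = 0.628; 0.21 without knockout 1). In Epi and Adipo the groups overlapped, with differences of 0.18 ± 0.27 and -0.07 ± 0.22, which turned to -0.08 without Epi knockout 1 and to 0.06 without Adipo wild type 3. The HFD effect minus the CD effect was -0.11 ± 0.29 (95% interval -0.74 to 0.52, adjusted p = 0.868), and the BA effect minus the HFD effect -0.02 ± 0.27 (95% interval -0.60 to 0.55, adjusted p = 0.976).

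G0s2, the inhibitor of PNPLA2, did not pass in any table. Its knockout mean was the higher one in CD, Epi and Adipo and the lower one in HFD, and in BA the means were level, at 4739 ± 1971 in wild type and 4735 ± 878 in the knockout (SD, n = 4 each). In CD it ran from 1126 in wild type 2 to 9174 in knockout 3, with wild type 1 and 3 at 3589 and 7816 and knockout 1 and 2 at 3653 and 3897 (0.68 ± 0.76, adjusted p = 0.76; -0.06 without wild type 2). In Epi wild type stood at 8575, 9437 and 7093 and the knockout at 18749, 8274 and 17729. Knockout 1 and 3 lay above every wild-type library and knockout 2 within their range (0.75 ± 0.33, 95% interval -0.02 to 1.53, adjusted p = 0.553). Epi knockout 2 had the lowest adipocyte marker level of the 3 knockout libraries, 15.88 against 16.65 and 16.50, and the most epididymis markers; their part was not tested. In the isolated adipocytes of Adipo, the wild-type G0s2 values were 6364, 7740.1 and 6297 and the knockout values 7689.8 and 6844, with overlap (0.10 ± 0.16). The Adipo effect minus the Epi effect was -0.65 ± 0.42 (adjusted p = 0.539). In HFD the 4 knockout libraries lay close together, at 5668 to 6009, inside the wild-type range of 4421 to 8907 (-0.23 ± 0.20).

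Abhd5 relative to G0s2, the activator against the inhibitor of the same lipase, was formed per transcript length within each library, after the values had been seen. In HFD the ratio was 0.155, 0.133, 0.113 and 0.0886 in wild type, and the knockout gave 0.178, 0.18, 0.219 and 0.193, so the groups did not overlap. In Epi it lay the other way, at 0.278 to 0.42 in wild type and 0.183 to 0.264 in the knockout, and in CD, Adipo and BA the groups overlapped. Pnpla2 relative to Lipe stood at 1.11 to 1.35 in HFD wild type and 1.46 to 1.802 in the knockout. It was without overlap by a small margin in Epi (1.04 to 1.44 and 1.45 to 2.12) and Adipo, and overlapped in CD and BA. Abhd5 and G0s2 were each also set against Pnpla2, and the groups overlapped in all 5 tables. In HFD, Abhd5 to Pnpla2 stood at 0.0439 to 0.067 in wild type and 0.0518 to 0.0725 in the knockout. G0s2 to Pnpla2 stood there at 0.284 to 0.504 and 0.288 to 0.407. No test was run on any of these ratios, and the share of other gene pairs without overlap was not computed. Of single genes, 14.0% in HFD, 16.5% in Epi and 48.0% in Adipo did not overlap.

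Ces1d, a carboxylesterase that hydrolyses triglyceride, showed its highest fold in Epi. Wild type stood at 64853, 66047 and 29276 normalised reads and the knockout at 102499, 62064 and 97848. Knockout 1 and 3 lay above all wild-type libraries and knockout 2 did not (0.77 ± 0.37, adjusted p = 0.578). In Adipo wild type gave 90586, 67153 and 24613 and the libraries labelled knockout 67385 and 83129, with overlap (0.50 ± 0.55). In BA it lay the other way: wild type stood at 23131, 23571, 23007 and 28654 and knockout 2, 3 and 4 at 16769, 13219.6 and 15354, all lower, while knockout 1 stood at 35872, above all of them. With knockout 1 included the difference was -0.39 ± 0.29 (adjusted p = 0.785); without it, it was -0.70 ± 0.16 (adjusted p = 0.15). In HFD and CD the groups overlapped, with differences of -0.14 ± 0.16 and 0.20 ± 0.35.

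Pnpla3, a PNPLA2 relative that binds ABHD5 and is known to respond to feeding and insulin, was lower in the Adipo knockout without passing. Wild type stood at 26124, 23519.6 and 19294 and the knockout at 16348 and 17497, without overlap (-0.43 ± 0.19, 95% interval -0.89 to 0.03, adjusted p = 0.223). In Epi the groups overlapped (-0.17 ± 0.25). In CD the values spread widely, from 2673 in wild type 2 to 26640.2 in knockout 3, with wild type 1 and 3 at 6408 and 12291 and knockout 1 and 2 at 8753 and 8795 (1.09 ± 0.69, adjusted p = 0.597). That difference was 0.52 without wild type 2, 0.56 without knockout 3 and 1.62 without wild type 3. In HFD wild type ranged from 6062 to 11097 around the knockout range of 7156 to 8260.2 (-0.14 ± 0.18).

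**Figure D3:**
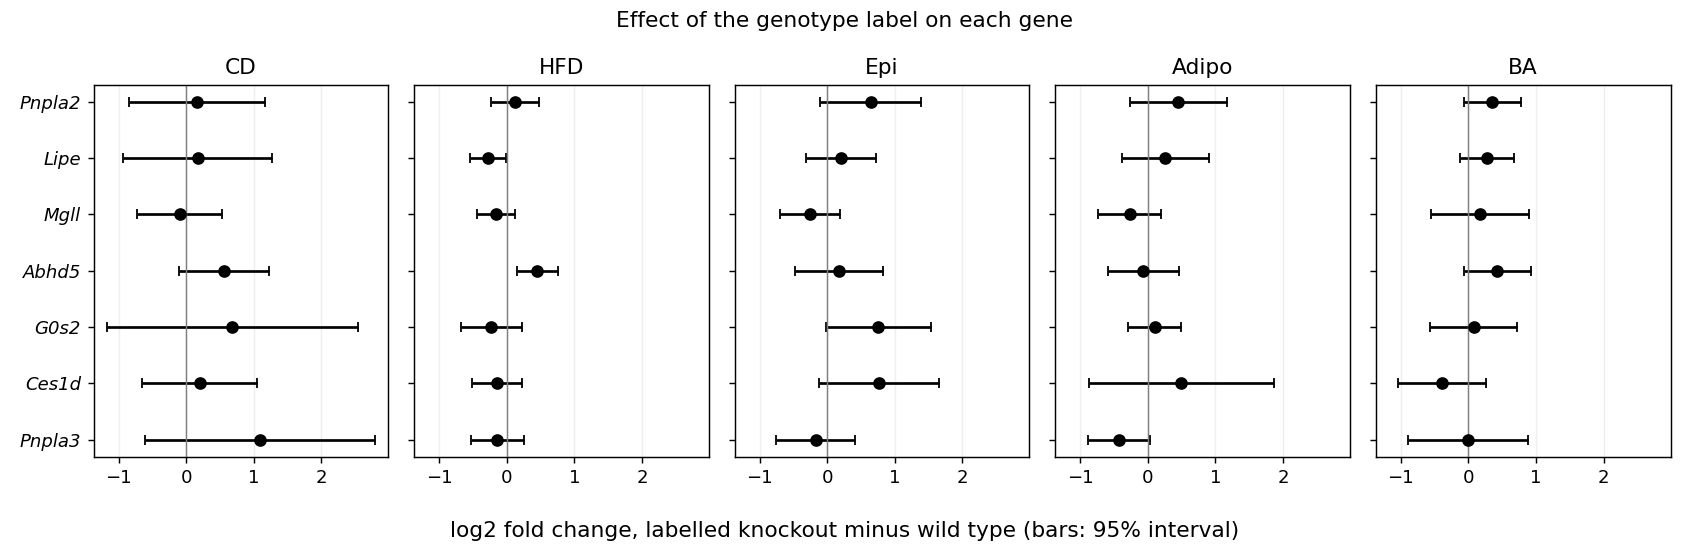
Log2 fold change of each gene between the libraries labelled knockout and wild type in the 5 tables, with 95% intervals from limma. Only the intervals of Abhd5 (0.15 to 0.76) and Lipe (-0.55 to -0.02) in HFD leave out 0, before adjustment over all genes. In HFD 20.8% of all genes had an unadjusted p under 0.05 by limma.

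In the inguinal fat of BA, Pnpla3 and Mgll divided the 8 libraries the same way across the genotype labels. Pnpla3 stood at 31308 and 29075 in wild type 1 and 2 and at 25803, 22161 and 24390.1 in knockout 2, 3 and 4, but at 13659, 11549.8 and 10116 in wild type 3, wild type 4 and knockout 1. Mgll was the reverse, at 13560.2, 13747, 16095, 17717 and 17392 in the first 5 and at 23571, 26398 and 37665 in the last 3. No library of 1 set overlapped the other for either gene, so in BA the largest differences in these 2 genes lay within genotypes. The fold changes with all 8 libraries were -0.01 ± 0.40 for Pnpla3 and 0.17 ± 0.33 for Mgll. Without knockout 1 they were 0.31 and -0.11, and without wild type 3 and 4 -0.64 and 0.61; none passed. The thermogenic gene Ucp1 stood at 20678 and 40497 in wild type 3 and 4 but at 5064 in knockout 1, within the 1255 to 7787 of the other 5, so it followed only a part of this division. The brown or beige marker list (Ucp1, Cidea, Elovl3 and others) had a mean log2 level of 11.42 and 12.15 in wild type 3 and 4, 10.66 in knockout 1 and 9.11 to 10.59 in the other 5; its part in the Pnpla3 and Mgll values was not tested. No label says how single animals of this table were stimulated.

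**Figure D4:**
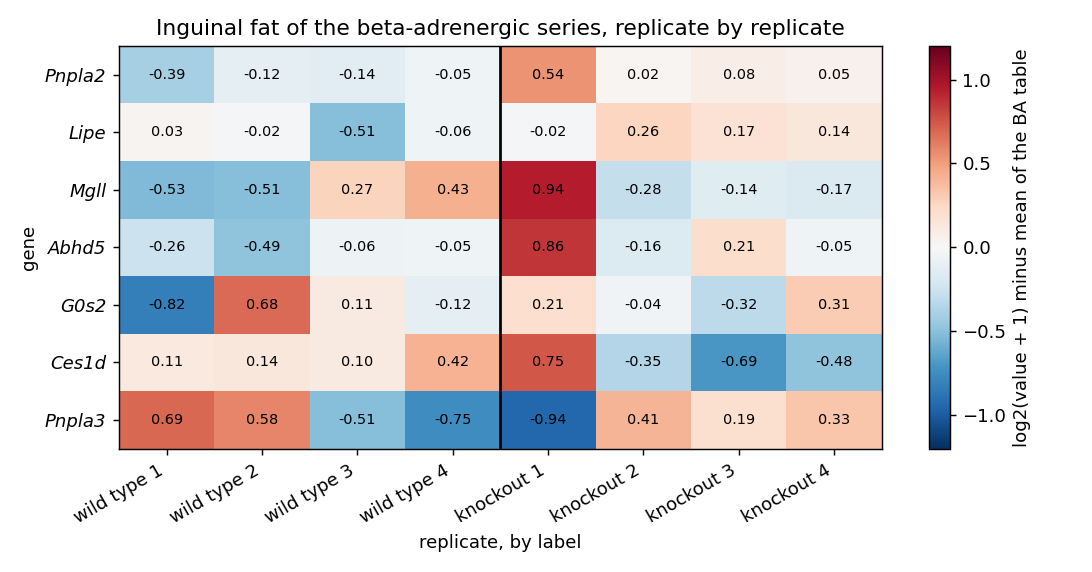
Log2(value + 1) of each gene in each BA library, minus the mean over the 8 libraries; red is higher, blue lower. Pnpla3 is low and Mgll high in wild type 3, wild type 4 and knockout 1, and knockout 1 is high for Pnpla2, Mgll, Abhd5 and Ces1d.

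In CD the 7 genes were lowest together in wild type 2, the library with the lowest adipocyte markers: Pnpla2 stood at 13657 there against 34253 and 30268 in wild type 1 and 3, and Lipe at 12978 against 31682 and 36291. Epithelial markers were high in wild type 2 and in knockout 1 and 2 (mean log2 9.45, 9.40 and 9.38), and their part was not tested. Without wild type 2 the CD differences of Pnpla2, Lipe, G0s2 and Ces1d turned from higher to lower in the knockout, at -0.25, -0.29, -0.06 and -0.14. None of the 7 passed with or without it. Without knockout 3, those of Pnpla2 and Lipe turned too, both to -0.01, and without wild type 1 that of Mgll turned from -0.10 to 0.08.

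Between tables, 0 of 28 differences in genotype effect passed by limma, and 1 had an unadjusted p under 0.05. That 1 was Lipe for BA minus HFD, where 13.5% of all genes had an unadjusted p under 0.05. Over all genes, 0% passed for HFD minus CD and for Epi minus CD, 1.67% for Adipo minus Epi and 0.381% for BA minus HFD. The adjusted p of the 7 genes ranged from 0.246 (Lipe, BA minus HFD) to 0.994.

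The genes around lipolysis were counted from 6 lists with 115 genes. The lists were chosen with earlier results of these data known, and their counts and shares carry no test. In HFD 105 were measured; 6 passed as higher and 6 as lower in the knockout, 11.4% beside 3.47% of all genes (1.01% higher and 2.46% lower). Among 20 other lipid hydrolases measured, Pnpla5, a triglyceride hydrolase of low abundance, rose from 15.99 ± 9.56 to 85.3 ± 13.2 normalised reads (log2 fold change 2.50 ± 0.36, adjusted p = 0.00785), and Abhd12, a lysophospholipid and monoglyceride hydrolase, fell by 0.57 ± 0.13 on the log2 scale. Of 21 adrenergic and cAMP genes, 0 rose and 3 fell: Adcy5, an adenylyl cyclase, from 5559.5 ± 607 to 2746 ± 431 (SD, n = 4 each), the phosphodiesterase Pde4d and the beta-1 receptor Adrb1. Of 16 anti-lipolytic and insulin-arm genes, the insulin signalling adaptor Irs2 rose from 1028 ± 64.8 to 2078 ± 215 and Ffar2, a receptor for short-chain fatty acids, fell from 1859 ± 394 to 1055 ± 94.1 (SD, n = 4 each). Of 16 genes of product release and re-use, Acsl1 and Mogat2 rose and the glycerol channel Aqp7 fell. Of 16 transcription factors Pparg and the glucocorticoid receptor Nr3c1 rose, the latter by 0.44 ± 0.09. None of the 16 droplet proteins measured passed; the closest were Plin2 (0.55 ± 0.18, adjusted p = 0.13) and Plin5 (-0.41 ± 0.14, adjusted p = 0.14).

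In Adipo 1 of 101 genes of these lists passed: Npr1, the receptor for natriuretic peptides, which also stimulate lipolysis. It rose from 211 ± 53.9 to 984 ± 330.3 (SD, n = 3 and 2), a log2 fold change of 2.20 ± 0.30 (adjusted p = 0.0495). Over all genes 0.546% passed as higher. Without trend or robust moderation 0 genes passed in Adipo, so Npr1 did not pass there. The endothelial markers given above did not overlap between the Adipo groups, and endothelial cells also carry natriuretic peptide receptors; the part of these markers was not tested. By limma 0 of 106 passed in CD, 0 of 112 in Epi and 0 of 103 in BA, with 15, 6 and 21 at an unadjusted p under 0.05. Over all genes, 9.61% in CD, 9.21% in Epi and 9.03% in BA had an unadjusted p under 0.05. In CD all 16 genes of product release and re-use had higher means in the knockout, as did 61.7% of all genes, with a median of 0.60 beside 0.11 over all genes. Wild type 2, the library low in adipocyte markers, was then left out, after the data were seen. Without it, 10 of the 16 were higher, as were 56.5% of all genes, with a median of 0.45 beside 0.07. In BA the droplet protein Plin2 stood at 29339.6 ± 7501 in wild type and 56528 ± 12903 in the knockout (0.96 ± 0.24, adjusted p = 0.199). The fatty acid transporter Slc27a1 stood at 9429.7 ± 1503 and 19036 ± 2179 (SD, n = 4 each, as for Plin2), a difference of 1.02 ± 0.17 (adjusted p = 0.0786). In BA the sum and mean level of the adipocyte marker list did not overlap, though Adipoq, Plin1 and Lep singly did. In Epi the natriuretic clearance receptor Npr3 stood at 79348 ± 13577 and 36429.6 ± 11269.7 (SD, n = 3 each; adjusted p = 0.368).

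The genes most like each of the 7 were taken by Pearson correlation of log2(value + 1) over the 33 replicates, centred on the mean of each table, among 9823 genes. The replicates share the adipocyte content of their sample, so these values are a description. For Lipe they were Plin1, the droplet protein that guards its access to fat (r = 0.93), the adipocyte factor Cebpa (0.91) and the droplet gene Fitm2 (0.90). For Pnpla2 they were Miga2 (0.90), Smoc1 (0.86) and Cluh (0.86), and for Mgll the peroxisomal enzyme Hsd17b4 (0.89), Apmap (0.87) and Pex19 (0.85). For Abhd5 they were the proteasome subunit Psma1 (0.89), Lactb2 (0.85) and Med8 (0.85), and for G0s2 Ppp2r5a (0.87), Echs1 (0.87) and Npepl1 (0.87). For Ces1d they were Iba57 (0.83), Ivd (0.83) and Slc25a26 (0.83), and for Pnpla3 Dolpp1 (0.85), Slc1a5 (0.83) and Ppp1r3e (0.82). Among the 7 themselves, Pnpla2 was most like Ces1d (0.74) and Lipe (0.74), and Pnpla3 and Mgll gave -0.20 over all tables. Within single tables that pair gave -0.97 in BA but 0.82 in Adipo, 0.81 in HFD, 0.74 in Epi and 0.39 in CD (5 to 8 replicates each).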

How the data were processed

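The 33 replicates come from 99 of 100 samples; in CD, HFD and BA the 4 libraries of a replicate agreed within about sampling noise, and their mean counts as 1 sample. The third Adipo sample labelled knockout was not analysed here, and 1 column matched no sample and was not used. Since no label names separate animals, p-values reflect the spread of these samples alone, and that spread may be technical. The deposited signal, 1 value per Ensembl transcript, is the authors' read count over the size factor of the library. Per the submitters' processing notes, the tools were STAR 2.4.0k, HTSeq 0.5.3 and DESeq 1.8.3, with bcl2fastq 2.17 and SAMtools, on GRCm38.p4; no strand setting is given. Dividing by the smallest step gave whole reads for 100% of values, within 0.01 of a read, in 96 libraries; depths cover these.

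For each gene, the transcript of the gene's own type with the highest mean was used; symbols and positions come from GENCODE M21 on GRCm38, and levels per length divide by transcript length and the library's sum. In R 4.3.3, limma 3.58.1 with trend and robust moderation was fitted within each table on log2(value + 1) keeping genes whose mean was at least 10; genotype was the single term, and p-values were Benjamini-Hochberg adjusted (threshold 0.05); differences between tables were contrasts in 1 fit. Fold changes are on this scale. Limma was tested on simulated data. edgeR 4.0.16 (quasi-likelihood) and DESeq2 1.42.0 were run on recovered reads as alternatives. Other alternatives were TMM scaling, no moderation, pseudocounts of 0.5 and 5, a minimum of 50 or none, summed transcripts, the replicate block and left-out replicates. Epi and Adipo samples of the same number were taken as pairs. Their deviations from the group means correlated above 0.1 in all 5 pairs (0.43, 0.50 and 0.70 in wild type, 0.36 and 0.16 in knockout). Unequal numbers passed 0.1 too: 0.18 and 0.16 between wild type 1 and 2, and 0.25 for Epi knockout 3 with Adipo knockout 2. In wild type each equal pair was the highest for its libraries. With 2 Adipo knockouts the deviations mirror each other, so the check cannot decide the knockout pairs. Named beside the 7 genes were up to 4 members per list that passed, otherwise up to 2 of smallest p, and the 3 genes most like each. The 7 genes and the lists were chosen with earlier results of these data known.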

Additional observations from a re-analysis of the deposited data

Results flagged for a closer look

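With 4 replicates a group, a replicate was picked out where its gap to the nearest other replicate took up nearly the whole range of its group. This was asked of the 7 genes in the 4 groups of HFD and BA, 28 in all, and met in 5; chance gives about 1 in 20. In BA knockout 1 it was met by 3 genes: Pnpla2 at 81172 normalised reads (the other 3 at 56603 to 59040.0), Mgll at 37665 (16095 to 17717) and Ces1d at 35872 (13219.6 to 16769). In BA wild type 4 it was met by Ces1d at 28654 (23007 to 23571), and in HFD knockout 2 by Pnpla3 at 7156, below the 8147 to 8260.2 of the other 3.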

How the results depend on the processing

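Over the alternatives for the 35 genotype effects, 588 of 616 values kept the direction of the reported one and 28 did not, and 1 passed. The count of the 7 genes that passed was 0 in each table under each alternative except DESeq2 on the recovered reads in HFD, where it was 1 (Abhd5, 0.52 on the log2 scale, adjusted p = 0.0065); the cause was not tested. With the replicate block it was 0 in every table and contrast, the pairing of Epi with Adipo included. Without each replicate in turn it ran from 0 to 0. Leaving out CD wild type 2 with knockout 1 and 2, or BA wild type 3 and 4, both chosen after the data were seen, also gave 0. Counts over all genes moved far more. DESeq2 called 922 genes in CD, 1452 in HFD, 530 in Epi, 271 in BA and 1797 in Adipo; edgeR called 531 in HFD, 125 in Adipo, 1 in BA and 0 in the other 2. The replicate block gave 268 in HFD and 1395 in Adipo. In Adipo, limma without trend or robust moderation called 0 genes, and summed transcripts gave 62, against 90 as reported. Leaving out 1 replicate gave 0 to 637 in CD and 126 to 1166 in HFD (1166 without wild type 1). It gave 0 to 22 in Epi, up to 718 in Adipo (without wild type 3) and 0 to 9 in BA. The 637 came without knockout 3, which leaves knockout 1 and 2, the closest pair of replicates in the study. With that pair taken as 1 replicate, limma called 0 genes in CD. Between wild type and knockout of 1 table, equal numbers did not pair. The groups held 2 to 4 replicates, and why none of the 7 genes passed by limma was not tested.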
